A study of Canis lupus familiaris with 62 samples.

Results

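Meningiomas are tumours of the membranes around the brain, and in dogs as in people they are treated by surgery, with or without radiotherapy to what remains. Some return soon after surgery and others do not, and expression and chromosome changes are searched for differences that go with the outcome. In a bulk tumour library, the gain or loss of a chromosome can move the transcripts of many of its genes together. Fixation in formalin breaks RNA into short pieces, so archived tumours give fewer usable reads than fresh tissue.

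Tumours of 5 dogs with an early recorded end after surgery were set against those of 10 dogs followed for long, out of 22 surgical dogs and 62 dogs in all. The 62 libraries were made from the total RNA of spontaneous canine meningiomas, taken by biopsy or at necropsy and archived in paraffin from 2011 to 2022. The rule for members uses labels and no expression value, though it was set with earlier results of these data known. The treatment label had to be Sx or Sx + RT, read here as surgery alone and as surgery with radiotherapy. The early group had no loss to follow-up and a survival label under 200. The long group had a survival label of 400 or more, lost to follow-up or not. The survival label carries no unit, and the labels call its close a loss to follow-up or not, without naming a death or its cause. The labels also do not say whether the sequenced tissue came from the first surgery or from a later date, or which drugs the surgical dogs received.

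The early dogs had survival labels of 5, 52, 77, 96 and 156, and each dog is called by its label from here on. Dog 156 had surgery with radiotherapy, and the other 4 had surgery alone. The group held 3 females and 2 males, none of them intact. The sample name of dog 5 begins with N, as do those of all dogs without surgery, and the names of the other 14 dogs begin with S. The labels do not explain the letter, and without dog 5 edgeR also called 0 genes (smallest adjusted p 0.155). The long dogs had labels of 435, 460, 499, 504, 561, 768, 832, 847, 1234 and 1523. Of these, dogs 460, 499, 832, 1234 and 1523 had radiotherapy as well, the sexes were 5 and 5, and dog 499 was intact. Only dogs 768 and 847 of the long group had a recorded end, and the other 8 were lost to follow-up. The groups thus differed in radiotherapy too, with 1 of 5 early dogs against 5 of 10 long dogs.

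The nearest labels on either side of the lower limit were 156, inside, and 182, a dog lost to follow-up and left out. At the upper limit they were 435, inside, and 396, a recorded end that was left out. The 7 surgical dogs left out had labels from 14 to 396. Of these, 6 were lost to follow-up before 400, so their outcome is not known.

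**Figure D1:**
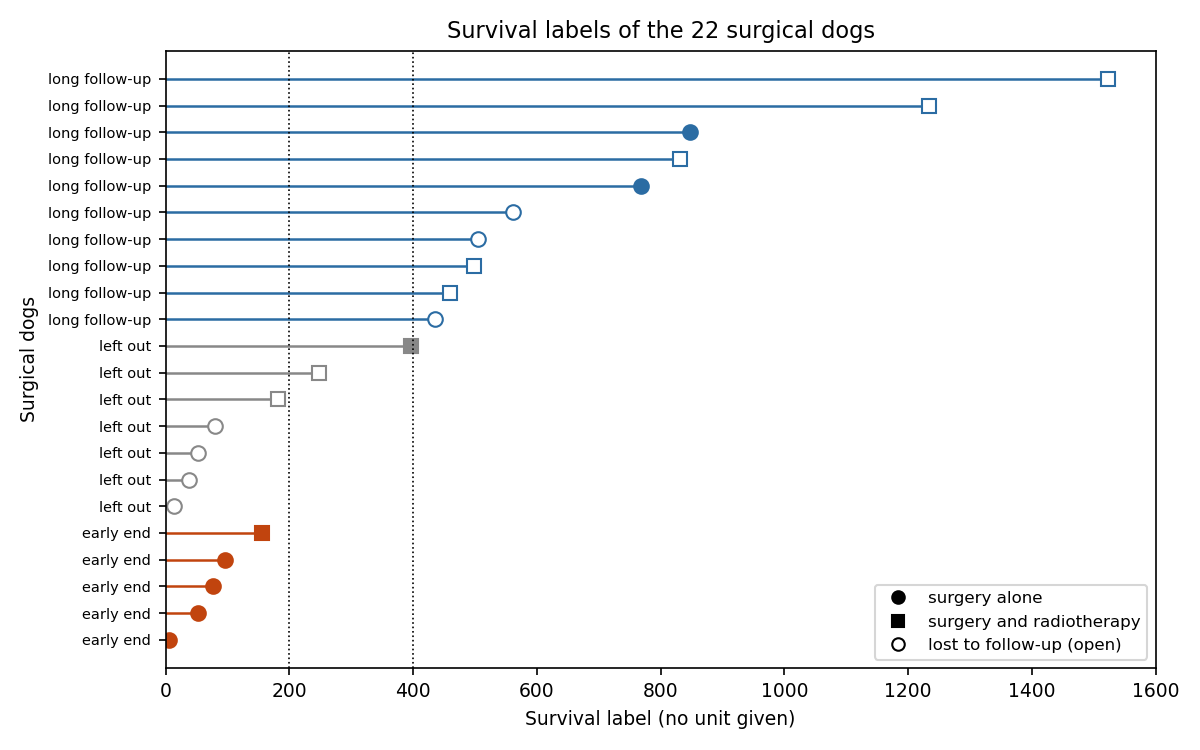
Survival label (horizontal axis, no unit) of the 22 surgical dogs, 1 line per dog, coloured by early end, long follow-up or left out. Squares mark radiotherapy, open symbols mark dogs lost to follow-up, and dotted lines stand at 200 and 400. The 5 early dogs end at 156 or below, and 8 of the 10 long dogs are open symbols.

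In edgeR and limma no gene differed between the early and the long tumours after correction for the genes tested, while DESeq2 called 50. Of 16839 genes counted in at least 8 of the 15 libraries, 0 (0%) passed an adjusted p of 0.05 in edgeR's quasi-likelihood test, and the smallest adjusted p was 0.221. Before adjustment, 1036 genes (6.15%) had a p under 0.05, with 579 of them higher and 457 lower in the early tumours. The median fold change of all tested genes was -0.01 on the log2 scale. With limma voom 0 genes were called and 835 had an unadjusted p under 0.05. The 50 genes called by DESeq2 were 32 higher and 18 lower, and 1264 had an unadjusted p under 0.05 in that test. Of those 50, 48 were among the genes with an unadjusted p under 0.05 in edgeR.

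The precision of the comparison limits what it could show. The standard error of a fold change had a median of 0.44 on the log2 scale, and of 0.28 for the 7706 genes whose mean level was 4 or more in log2 CPM, the counts scaled to library size. The 95% interval of the fold change lay within 1 log2 unit on either side of 0 for 6107 genes (36.3%), and for 5168 (67.1%) of the better counted ones. For the remaining genes the interval reached a 2-fold difference or more, so such a difference was not shown and cannot be set aside with these dogs. Fold changes beyond 2 log2 units in size were estimated for 556 genes, 272 higher and 284 lower, and none of these passed the correction in edgeR.

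For most genes the SD between dogs was larger among the 5 early tumours than among the 10 long ones. Across genes, the median SD of log2 CPM was 0.807 in the 5 early tumours and 0.703 in the 10 long tumours, and the early SD was the larger for 10455 genes (62.1%). Genes are not independent replicates, and no test of the spread over dogs was made. The extreme values were not shared evenly among the early dogs. Among the 579 genes higher at an unadjusted p under 0.05, dog 77 was the highest early tumour for 295 (50.9%) and dog 96 for 145 (25.0%). Dog 5 was the highest for 85 of them, dog 52 for 29 and dog 156 for 25. Over all 8296 genes with a positive fold change, the shares of dogs 77 and 96 were 29.8% and 27.1%. Among the 457 lower genes dog 96 was the lowest for 163, dog 77 for 141, dog 52 for 90, dog 5 for 37 and dog 156 for 26. The shares of dogs 96, 77 and 52 were thus 35.7%, 30.9% and 19.7%. Over all 8543 genes with a negative fold change they were 37.6%, 27.9% and 13.1%, so dogs 96 and 77 were near their shares over all genes. Among the higher genes dog 96 was also near its share, and dog 77 was above it.

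Without dog 77, 271 of the 579 higher genes and 268 of the 457 lower genes still had an unadjusted p under 0.05. Without dogs 77 and 96 together these counts were 162 of the 566 still tested and 146 of 457. Over all genes tested, 895 of 17169 had an unadjusted p under 0.05 without dog 77, and 711 of 17018 without both dogs. Both fits called 0 genes in edgeR. The sign without both dogs was kept by 511 of the 566 higher genes and by 457 of the 457 lower genes. All these genes were picked by their p in a fit that held the same remaining dogs. A kept sign was therefore largely set by that choice and does not show a replicated difference. Without both dogs the median size of the fold change of the higher genes fell from 1.59 to 0.82 on the log2 scale. That of the lower genes went from 1.34 to 1.29. The counts per dog and the fits without dogs 77 and 96 were chosen after the data were seen.

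**Figure D2:**
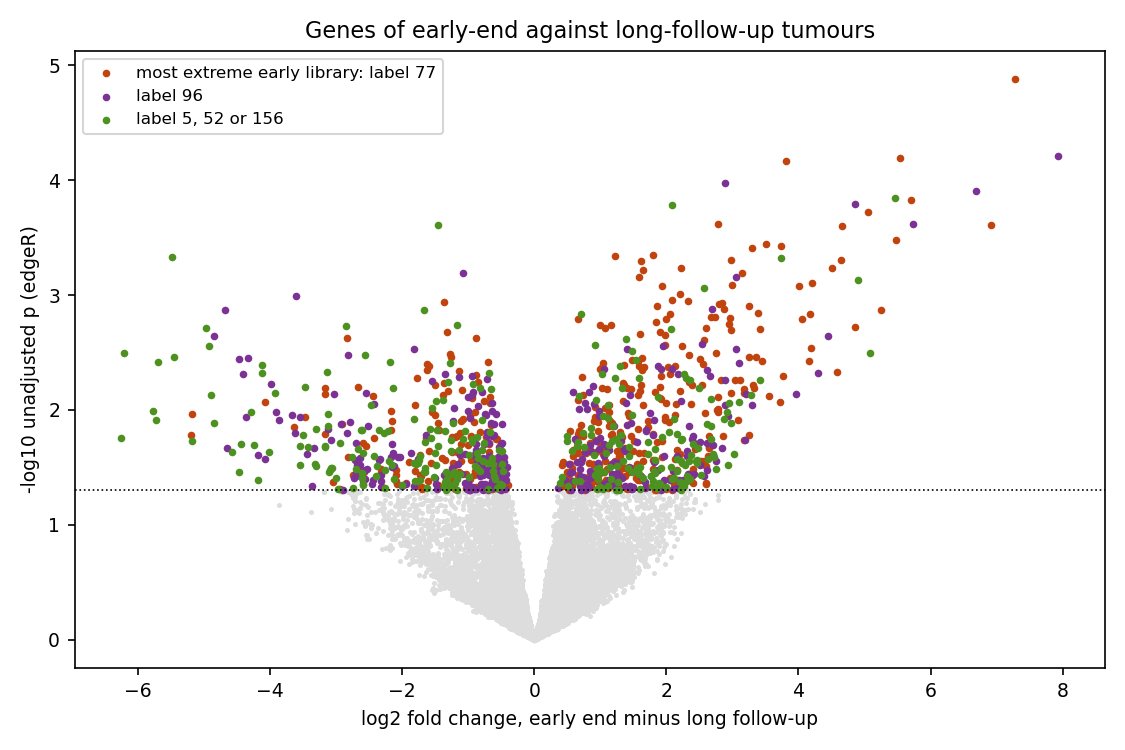
Fold change of the 16839 tested genes (horizontal axis, log2, early minus long) against the unadjusted p of edgeR (vertical axis, -log10). Coloured points have an unadjusted p under 0.05 and show which early dog was the most extreme for that gene, and the dotted line marks 0.05. Most of the points far to the right carry the colours of dogs 77 and 96.

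The genes that other fits called higher were often highest in dog 77. Of the 32 genes DESeq2 called higher, dog 77 was the highest early tumour in 23. Over all genes with a positive fold change in edgeR, the share of dog 77 was 29.8%. Of the 18 genes DESeq2 called lower, the lowest early tumour was dog 96 in 6, dogs 52 and 77 in 5 each, and dogs 5 and 156 in 1 each. Dogs 96 and 77 were the lowest for 37.6% and 27.9% of all genes with a negative fold change in edgeR. For 49 of the 50 the group medians differed in the direction of the fold change. DESeq2 without dog 77 called 18 genes, of which 6 were among the 50. When all 22 surgical libraries shared 1 edgeR fit, 3 genes were called, all higher and all highest in dog 77, and 0 were called without dog 77. When all 62 libraries shared 1 fit, 19 genes were called, all higher, and dog 77 was the highest early tumour in 14 of them. That fit called 4 genes without dog 77, and all 4 were among the 19.

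The deposited table gives gene identifiers without names, and the name table at hand matched 0 of them. Genes are therefore given by identifier for the leading 2 in each direction and by position for others, on CanFam3.1, and what their products do is left unsaid. For the same reason the prepared lists of 20 pathways and cell types were not analysed, and neither the meningeal identity of the tumours nor admixed brain, blood or immune cells could be checked. In bulk tissue fewer cells of a type and less RNA per cell cannot be told apart.

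The gene with the smallest p among the higher ones was ENSCAFG00000003426, which spans chr11:69077535-69170281 with 30 exon blocks. Its log2 CPM was 7.21 in dog 5, 2.87 in dog 52, 13.34 in dog 77, 8.07 in dog 96 and 3.80 in dog 156. In the long dogs it ran from 2.26 through a median of 3.51 to 4.83. Dogs 5, 77 and 96 lay above all long dogs, and dogs 52 and 156 lay within their range. The group means were 7.06 ± 4.15 (SD, n = 5) and 3.55 ± 0.97 (SD, n = 10). The edgeR fold change was 7.29 on the log2 scale (SE 1.21, adjusted p 0.221). It was 2.97 without dog 77, 2.02 without dogs 77 and 96, and 1.96 with limma voom. DESeq2 gave this gene no adjusted p with all 15 dogs, and called it without dog 77 (fold change 3.00, adjusted p 0.0294).

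The level in dog 77 came from 31790 counts, and was the highest of all 62 libraries. Elsewhere ENSCAFG00000003426 reached 11.75 in a dog with the treatment label steroid/anti-epileptic, 9.05 in a dog with radiotherapy alone and 8.73 in an untreated one. The 7 surgical dogs left out ran from 1.80 to 5.84, and the untreated median was 5.16. High levels of this gene were thus seen outside the early group as well.

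ENSCAFG00000000001 spans chr1:252103-322718 with 25 exon blocks. Its log2 CPM was 4.81 in dog 5, 2.21 in dog 52, 11.70 in dog 77, 5.31 in dog 96 and 3.64 in dog 156. The long dogs ran from 3.00 through a median of 3.94 to 4.37. Dog 77 stood 6.39 above the next early dog, and dog 52 lay below all long dogs. The fold change was 5.54 (SE 1.06, edgeR adjusted p 0.265), 0.50 without dog 77 and 0.01 without dogs 77 and 96. In untreated dogs the median level was 4.41, and the highest was 5.97. The same dog labelled steroid/anti-epileptic reached 8.52, the next highest of the 62 libraries after dog 77. The fold change of ENSCAFG00000000001 between the groups was thus near 0 once dogs 77 and 96 were left out.

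The 2 leading genes at lower level in early tumours had the opposite shape, with small spreads and no single dog behind the estimate. ENSCAFG00000007326 spans chr29:16019246-16050535 with 14 exon blocks. Its log2 CPM was 4.85 in dog 5, 3.53 in dog 52, 4.54 in dog 77, 4.49 in dog 96 and 4.70 in dog 156. In the long dogs it ran from 4.87, in dog 460, through a median of 5.93 to 6.70, in dog 435. Every early dog thus lay below every long dog, although dogs 5 and 460 were 0.02 apart. The means were 4.42 ± 0.52 (SD, n = 5) and 5.82 ± 0.58 (SD, n = 10), and the fold change was -1.45 (SE 0.32, edgeR adjusted p 0.265). Leaving out each dog in turn moved it between -1.57 and -1.28.

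With radiotherapy in the model the fold change of ENSCAFG00000007326 was -1.45, and in dogs with surgery alone it was -1.56. DESeq2 called the gene (adjusted p 0.0132), also without dog 77 (adjusted p 0.0348). The left-out surgical dogs ran from 3.62 through 5.37 to 6.27, across both groups. Untreated dogs had a median of 4.93, between the early and the long median, with a range from 3.31 to 6.37.

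ENSCAFG00000014955 spans chr34:35298907-35302688 with 4 exon blocks. Its log2 CPM was 4.54 in dog 5, 3.90 in dog 52, 4.01 in dog 77, 3.85 in dog 96 and 4.08 in dog 156. The long dogs ran from 4.51 through a median of 5.09 to 5.89, so only dog 5 reached into their range. The means were 4.08 ± 0.28 (SD, n = 5) and 5.10 ± 0.45 (SD, n = 10). The fold change was -1.08 (SE 0.26, edgeR adjusted p 0.341), and leaving out each dog kept it between -1.23 and -0.97. DESeq2 called this gene with all 15 dogs (adjusted p 0.0427) and did not call it without dog 77 (adjusted p 0.136), where its fold change was -1.05 against -1.06.

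**Figure D3:**
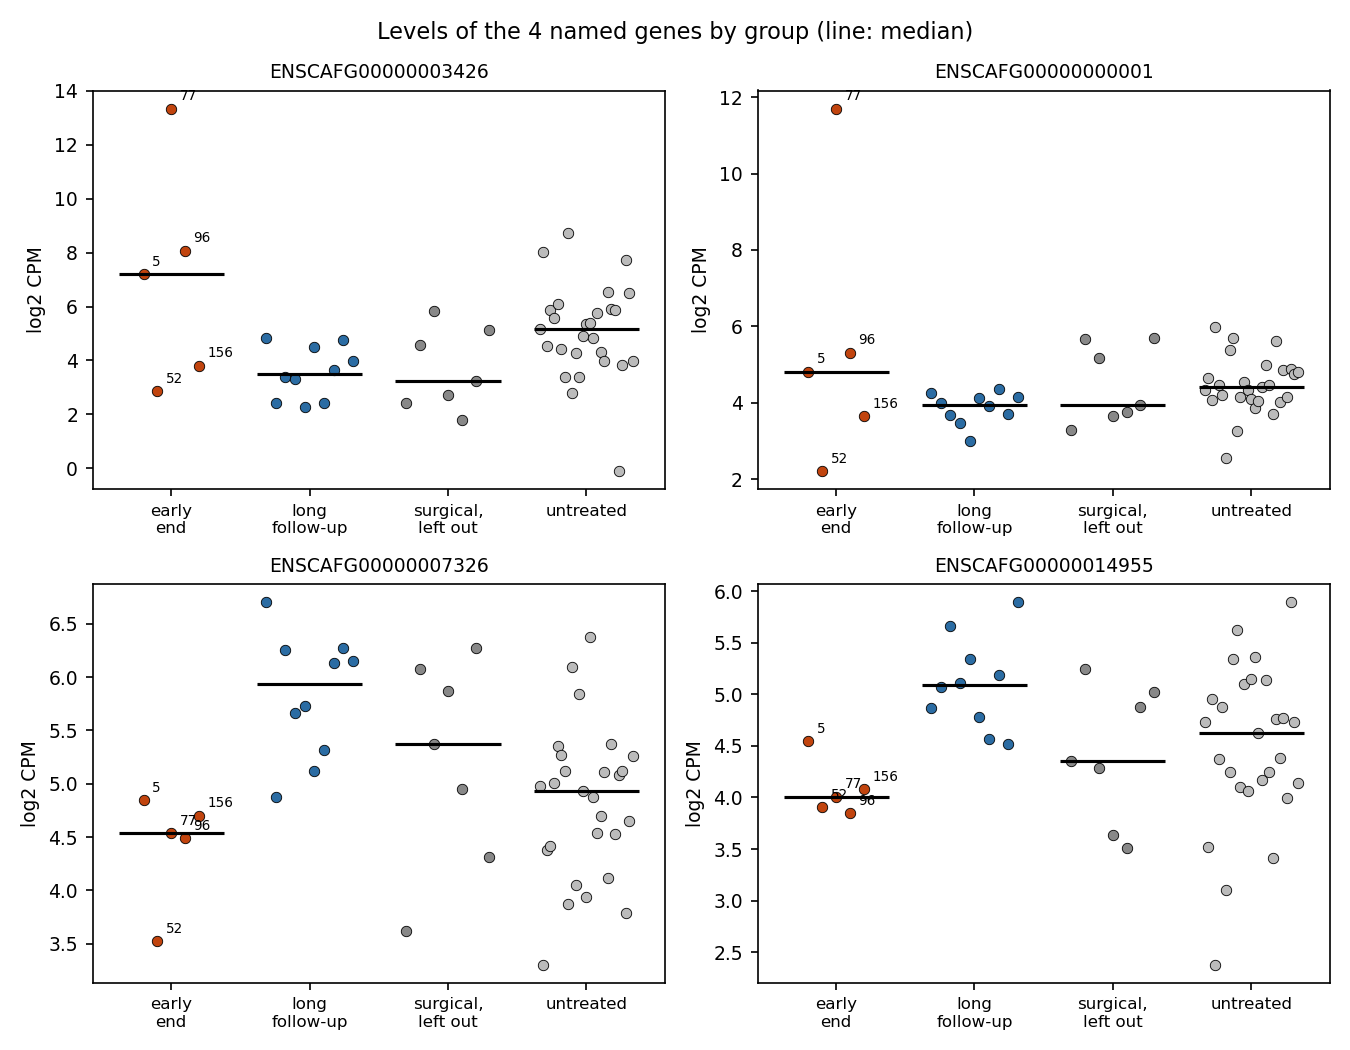
Level in log2 CPM (vertical axis) of the 4 named genes in early, long, left-out surgical and untreated dogs, 1 point per dog, with the survival label beside the early dogs and a line at each group's median. Dog 77 stands alone at the top of the upper panels, and in the lower left panel all 5 early dogs lie below the 10 long dogs.

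For 8 genes (0.0475% of those tested) the early and the long dogs did not overlap, 5 with all early dogs above (0.0297%) and 3 with all early dogs below (0.0178%). None of the 8 passed the correction in edgeR. These genes were singled out after their values were seen. There are 3003 ways to choose the early dogs. For untied values, chance alone thus separates a gene in a given direction with a probability of 0.000333. The shares of genes with all early dogs above and with all below were both under that rate. Full separation was therefore no more common than chance would give, and by itself it does not mark a gene as different between the groups. The smallest p of the 5 higher genes belonged to a gene at chr28:6168917-6172004, where the log2 CPM was 4.49, 3.43, 4.15, 2.72 and 3.40 in dogs 5, 52, 77, 96 and 156. The long dogs ran from 0.21 to 2.57 with a median of 1.88, and the fold change was 2.08 (SE 0.43, edgeR adjusted p 0.265). Dog 96 was the closest to the long range, 0.14 above it. The untreated median was 3.03, nearer to the early dogs.

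A gene at chr36:16484302-16502510 had early levels from 3.30 to 5.77, highest in dog 77, and long levels from -1.39, which stands for no counts, to 3.04. A gene at chr12:1146376-1148566 had early levels from 2.88 to 4.18 against 1.53 to 2.79, with a fold change of 1.06 (SE 0.32, edgeR adjusted p 0.530). A gene at chr5:75288139-75303755 ran from 2.77 to 3.75 against 0.98 to 2.65. The last, at chr22:2819735-2834097, rested on 4 to 8 counts in each early dog. In all 5 higher genes the groups lay close together at their nearest dogs.

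Of the 3 genes with all early dogs below, ENSCAFG00000007326 is described above. A gene at chr20:36781858-36819211, with 13 exon blocks, was at 3.89, 3.92, 3.95, 3.42 and 3.78 in dogs 5, 52, 77, 96 and 156. Its long levels ran from 4.07 to 5.14, and its fold change was -0.65 (SE 0.23, edgeR adjusted p 0.651). The gene at chr38:1911052-1912013 had 0 counts in 4 early dogs and 2 counts in dog 52, and between -0.17 and 1.32 log2 CPM in the long dogs. The second of these was thus well counted but differed little, and the third was barely counted.

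As whole profiles, the early tumours did not form a cluster of their own. Over genes averaging at least 2 in log2 CPM, the median correlation between libraries was 0.772 for the 10 pairs of early dogs, 0.834 for the 45 pairs of long dogs and 0.812 between the groups. These correlations are across genes, which are not independent replicates. The library most like each early dog was that of a long dog in 5 of 5. Dog 5 was nearest to dog 460 (r = 0.851), dog 52 to dog 832 (r = 0.921), dog 77 to dog 561 (r = 0.734), dog 96 to dog 1234 (r = 0.825) and dog 156 to dog 847 (r = 0.881). In the other direction, an early dog, dog 52, was the nearest to long dogs 460 and 832, and the other 8 long dogs were nearest to a long dog. Long dogs make up 10 of the 15 libraries, which bears on these counts.

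Dog 77 stood apart from every other tumour. Its mean correlation with the other 14 libraries was 0.705, the lowest of the 15, and its correlation with dog 96 (r = 0.649) was the lowest of 105 pairs. On the first principal component, which held 18.1% of the variance, dog 77 was at 128.9 and the other 14 lay between -26.0 and 35.9. Its library was also the shallowest, with 2623994 counts, and had the lowest mitochondrial share, 3.00%. Whether depth or tissue quality had a part in its profile was not tested. Long dog 460 had nearly as few counts, 2645740, and a mean correlation of 0.808.

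Genes at least 3 log2 units beyond every other library were counted for each dog, after the data were seen. Dog 77 had 43 such genes above the rest and 51 below. The 43 genes lay on 23 chromosomes, at most 6 of them on any 1, which was chromosome 15, and their median level was 7.31 against 1.75 in the other dogs. Dog 96 had 7 above and 53 below, the latter on 29 chromosomes. In dogs 77 and 96 the median level of the genes below was -1.39, which stands for no counts. Dog 96 also had the fewest genes counted of the 15, 15235. Whether lost transcripts of this library had a part in its genes below was not tested. Dog 5 had 4 above and 0 below, and dogs 52 and 156 had none. Among long dogs, dog 561 had 21 above and 7 below, dog 768 had 3 and 10, and the other 8 had at most 3 above and 6 below. Genes far from every other library were thus found in dogs of both groups.

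**Figure D4:**
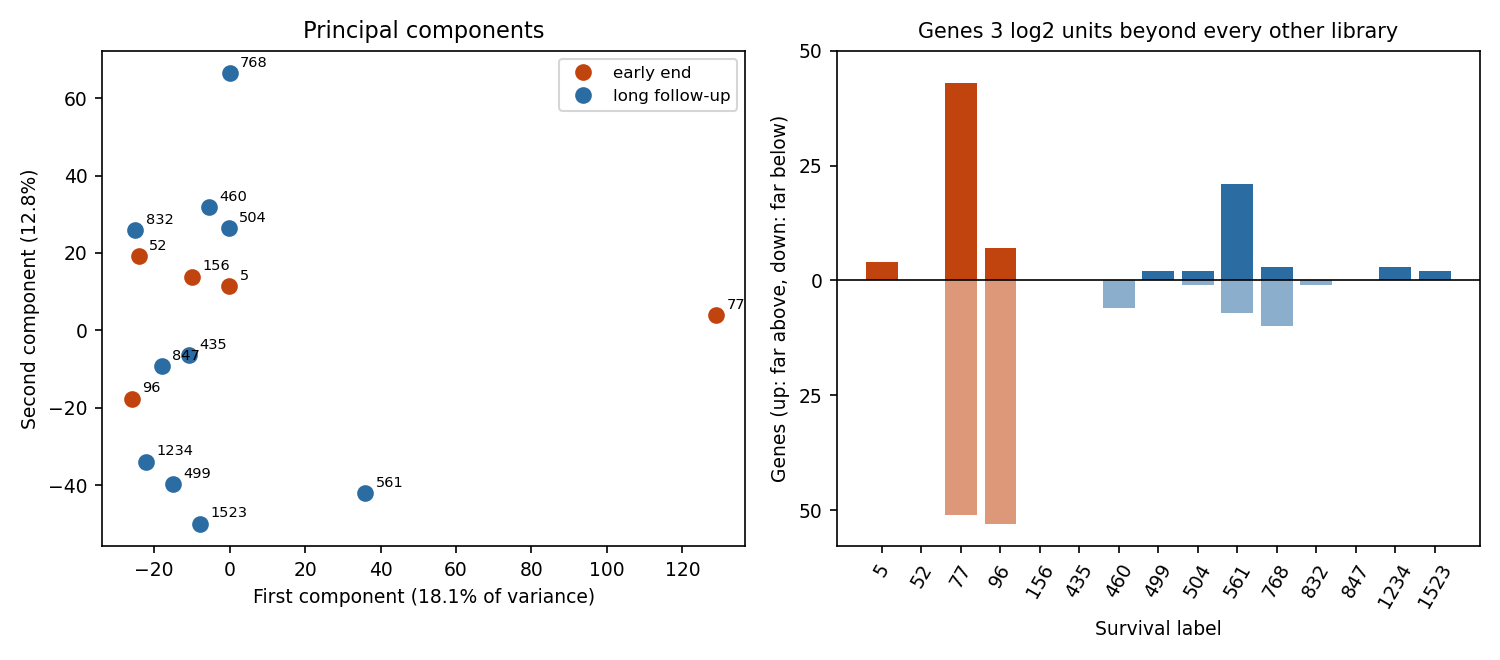
Left, the 15 libraries on the first and second principal components (arbitrary units, with the share of variance). Right, for each dog, the number of genes at least 3 log2 units above (up) or below (down) every other library. Dog 77 lies at 128.9 on the first component, and dogs 77 and 96 have the most such genes below the rest, 51 and 53.

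Library measures did not separate the groups. Total counts ran from 2623994 to 8641108 over the 15 libraries, with means of 4806240 ± 1485330 (SD, n = 5) in early and 5473900 ± 2059300 (SD, n = 10) in long dogs (exact permutation test, 2-sided, p = 0.523). The share of even values among low counts, which rises when read pairs enter as 2 reads and genes have few fragments, was 89.1% ± 3.25 in early and 85.6% ± 3.01 in long dogs (exact p = 0.0599, adjusted over 8 measures 0.480). The mitochondrial share was 10.2% ± 5.83 (SD, n = 5) and 11.2% ± 3.98 (SD, n = 10), with an adjusted exact p of 0.694. Of the 8 measures 0 passed an adjusted p of 0.05, and the smallest p any of these tests could give was 0.000333. The difference in even values had the smallest p, and its part in the gene results was not tested.

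Levels were then summed over chromosomes. A chromosome score is the mean over the chromosome's genes of log2 CPM less each gene's mean, centred on the library's median over autosomes, and it was computed from 11742 genes. Of 39 scores, 0 (0%) differed between early and long dogs at an adjusted p of 0.05 in an exact 2-sided permutation test. The smallest unadjusted p was 0.154 and the smallest adjusted p 0.921.

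The chromosome with the smallest p was chromosome 4. Its score was 0.04 in dog 5, 0.01 in dog 52, -0.55 in dog 77, -0.06 in dog 96 and 0.03 in dog 156. The long dogs ran from -0.07 to 0.42, highest in dog 768. The means were -0.11 ± 0.25 (SD, n = 5) and 0.06 ± 0.16 (SD, n = 10), a difference of -0.17, which was -0.05 without dog 77, -0.13 without dog 768 and -0.04 without dogs 77 and 96. Among single genes of chromosome 4, 11.9% of 495 had an unadjusted p under 0.05, 18 higher and 41 lower, against 6.15% of all genes. Dog 77 was thus the lowest of the 15 on this chromosome, dog 768 the highest, and most of the difference was gone without dog 77.

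On chromosome 9, 8.11% of 987 genes had an unadjusted p under 0.05, with 61 higher and 19 lower. The scores of chromosome 9 were 0.32 in dog 77 and 0.47 in dog 96, and -0.08, 0.00 and -0.25 in dogs 5, 52 and 156. Long dogs 504 and 561 were also high, at 0.21 and 0.33, and the scores did not differ between the groups (exact p = 0.305, adjusted 0.921).

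Chromosome 17 was low in dogs of both groups. Its score was -0.58 in early dog 52, and -0.44 and -0.58 in long dogs 460 and 832, while the other 12 dogs lay between 0.00 and 0.24. Dog 52 and dog 832, which shared a low chromosome 17, were also each other's nearest libraries. The difference between the groups was -0.07 (exact p = 0.551, adjusted 0.921) and turned to 0.07 without dog 52. Among dogs with surgery alone it was -0.29, with an exact 2-sided permutation p of 0.0159 and an adjusted p of 0.619. With so few dogs a single chromosome could not have passed the correction, so this adjusted p decides little. The scores were computed anew in that subset for this test. As computed over all 15 libraries, the early scores were 0.12, -0.58, 0.00 and 0.05 in dogs 5, 52, 77 and 96. All were below the 5 long scores of the subset, which ran from 0.14 to 0.24. Long dogs 460 and 832, with low scores, had radiotherapy and were not in the subset.

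The number of autosomes with a score beyond 0.3 in either direction separated tumours, not groups. In early dogs 5, 52, 77, 96 and 156 it was 1, 1, 8, 7 and 0. In the long dogs it was 12 in dogs 504 and 561, 14 in dog 768, and 0 or 1 in the other 7. The means were 3.4 ± 3.78 (SD, n = 5) and 4.1 ± 5.95 (SD, n = 10), which did not differ (exact permutation test, 2-sided, p = 0.878). Many deviating chromosomes were thus seen in 2 early dogs and in 3 long dogs. This count and its limit were chosen after the scores were seen.

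**Figure D5:**
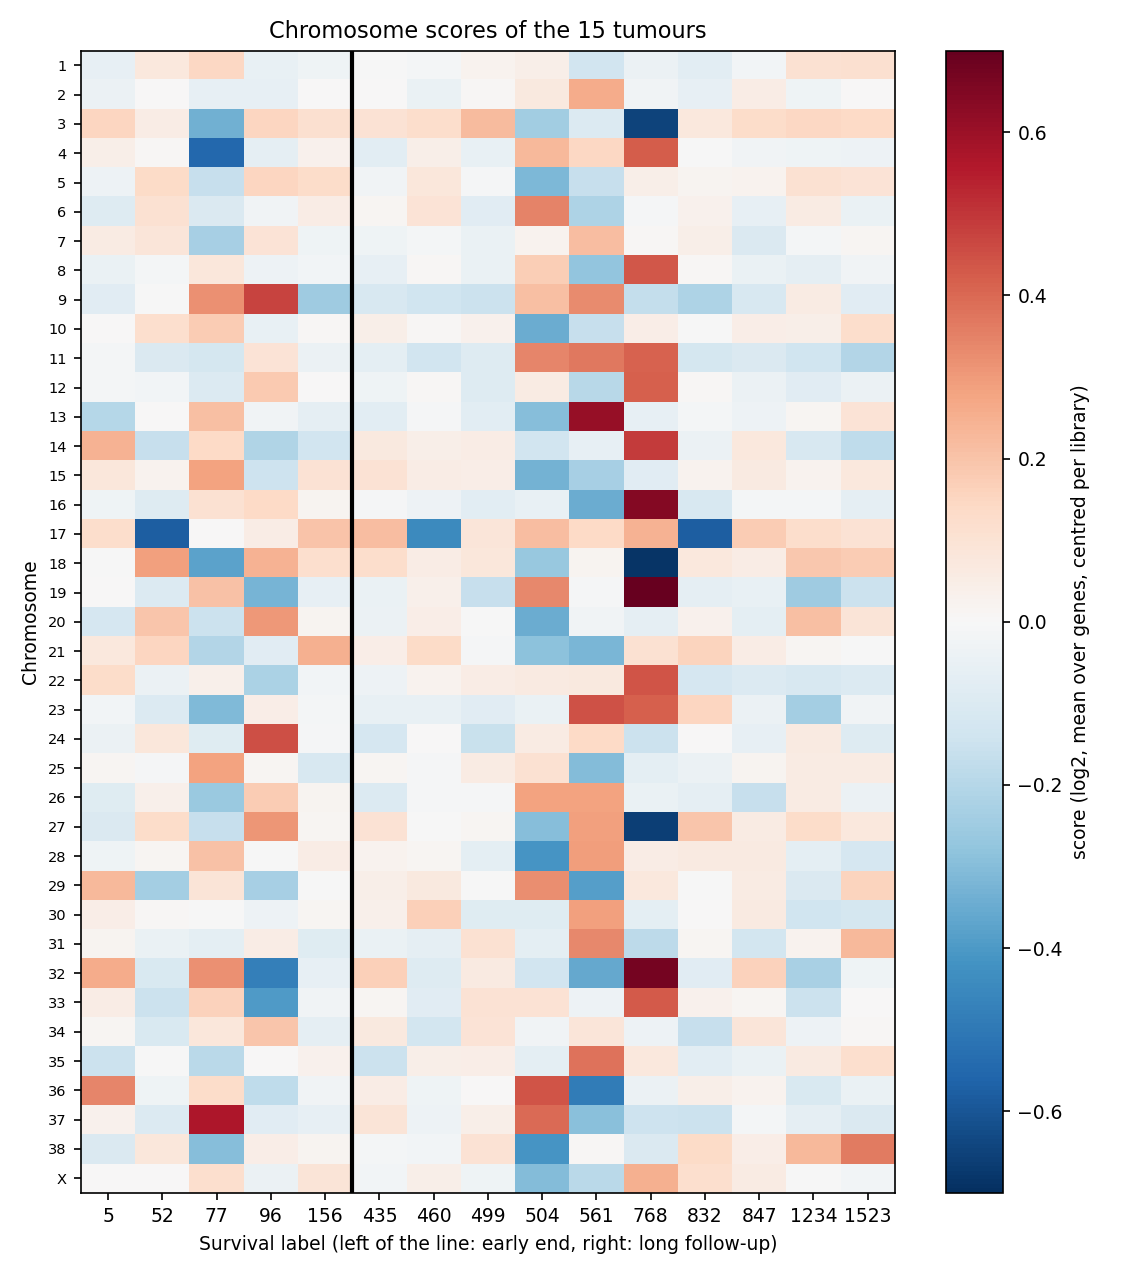
Chromosome score (colour, log2 units, centred per library) of 38 autosomes and X (rows) in the 15 tumours (columns, by survival label, with the line between early and long dogs). Dogs 77 and 96 on the left and dogs 504, 561 and 768 on the right have the most coloured cells, and chromosome 17 is blue in dogs 52, 460 and 832.

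Since radiotherapy was more common in the long group, genes were also fitted with radiotherapy in the model and in dogs with surgery alone, 4 against 5. Both fits called 0 genes in edgeR, with smallest adjusted p of 0.787 and 0.279. An unadjusted p under 0.05 was found for 981 of 16839 genes with radiotherapy in the model and for 1275 of 16781 with surgery alone. Of these, 710 and 547 were among the 1036 genes of the first edgeR fit. Within dogs with radiotherapy the comparison has 1 early dog, dog 156, and was not made. Limiting the long group to the 8 dogs lost to follow-up, or to the 2 with a recorded end, also gave 0 calls. The p-values measure the spread between these 15 dogs, 1 tumour library each.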

How the data were processed

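The deposited values are raw counts. Per the file headers, they were made with featureCounts 2.0.4 from primary alignments, summed over the exons of each gene in the CanFam3.1 annotation of Ensembl release 100. No strand option is set, so a gene and an overlapping antisense partner share reads, and near-identical copies are uncertain. Pairs were allowed but fragments not requested, so the 2 reads of a pair counted separately. The submitters' processing notes name STAR, DESeq2 and the build canFam3. Per the labels' protocols, reads were 150 nt pairs. The version of STAR is not given in the sources used here. The columns were matched to dogs by the names in the labels.

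Genes counted in at least 8 of the 15 libraries were scaled by TMM and tested with edgeR 4.0.16 (quasi-likelihood, R 4.3.3), with Benjamini-Hochberg adjustment over all 16839. Alternatives used DESeq2 1.42.0 and limma 3.58.1. Levels are log2 CPM with a prior count of 2. Exact permutation tests enumerated all 3003 choices of 5 of 15 dogs (Python 3.11.15, numpy 2.4.6). The scripts were tested on simulated data. Recovery of planted gene changes was required only where libraries varied less than in these data (common dispersion 0.45). The rule for named genes asked for symbols, called genes and a mean log2 CPM of at least 1. Without symbols or calls it was reduced to the 2 smallest p per direction, with that level and group medians differing in the direction of the fold change. The closest of 105 library pairs, dogs 435 and 847, had a chi-square per gene of 11.8, far over sampling noise, and no library was counted as a copy of another. The members and lists were chosen with earlier results of these data known. Alternatives covered scaling, filter, tool, covariates, samples and each dog left out.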

Additional observations from a re-analysis of the deposited data

Results flagged for a closer look

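In each group, the highest or lowest dog was checked for a gap to the next dog that was wide against the group's range, in 102 checks. Chance alone marks about 1 in 20 such checks, and 22 were marked, 19 of them chromosome scores. The scores of a dog's chromosomes are centred within its library and are not independent checks. The number of marks therefore cannot be read as an excess over that rate. Among early dogs, dog 52 stood below the others in the log2 CPM of ENSCAFG00000007326 (3.53) and in the score of chromosome 17 (-0.58). Dog 77 stood apart on the first component (128.9) and on chromosomes 3 (-0.33), 4 (-0.55), 8 (0.079) and 37 (0.56). Dogs 5, 96 and 156 stood apart in none.

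Among long dogs, dog 561 stood apart on the first component (35.9) and on chromosomes 2 (0.26), 7 (0.21), 13 (0.61), 25 (-0.30) and 35 (0.38). Dog 768 stood apart on 8 chromosomes. It was low on chromosomes 3 (-0.65) and 18 (-0.69), and high on chromosomes 12 (0.42), 14 (0.49), 16 (0.64), 22 (0.44), 32 (0.67) and 33 (0.43). Dog 504 stood apart on chromosome 20 (-0.35). The marks thus fell on 2 early and 3 long dogs.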

How the results depend on the processing

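Of 35 alternatives to the gene comparison, 28 gave 0 calls, as with the 15 dogs in edgeR. The exceptions were DESeq2 with 50 calls (18 without dog 77), the fit of all surgical libraries with 3 (0 without dog 77), the fit of all 62 libraries with 19 (4 without dog 77), and leaving out single dogs, with 0 to 1 calls. The 1 call came without dog 52 (smallest edgeR adjusted p 0.0395) and without dog 504 (0.0230). The fits without dog 77, the fit without dogs 77 and 96, and the count of fragments in place of reads were chosen after the data were seen. The 39 chromosome scores gave 0 calls in 21 of 21 alternatives, and the 8 library measures in 17 of 17. In dogs with surgery alone the exact test has few assignments, and no single score or measure could have passed the correction. Without dogs 77 and 96 no single chromosome score could have passed it either. The 0 calls of these fits therefore show little. The difference on chromosome 17 ran from -0.132 to 0.0677 when single dogs were left out, the latter without dog 52. The difference in deviating autosomes turned from -0.7 to 0.1 with a limit of 0.2, and was -1 with a limit of 0.4. The cause was not tested where a result turned, other than the dogs left out. DESeq2's size factors moved the median of all genes by 0.02 on the log2 scale. No paired analysis was possible because the groups hold different dogs, with 1 library each. Standard errors were wider over all genes (median 0.44) than over the better counted ones (0.28), and the part of depth in this was not tested.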
